A study of Danio rerio with 6 samples.

Results

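Slow-twitch muscle cells and trunk neural crest cells of the zebrafish (Danio rerio) were compared by bulk RNA sequencing of cells sorted from embryos at 24 hours post fertilization. The comparison covers every gene with at least 10 counts in 2 or more of the 4 libraries, which is 16701 of the 32520 genes in the count table. The slow muscle group is 2 libraries of cells sorted for tgPAC(prdm1a:eGFP), a reporter for slow-twitch muscle and muscle pioneers, and the neural crest group is 2 libraries sorted for tg(sox10:mRFP). Both groups are labelled wildtype and untreated, the embryos carried both transgenes, and manually dissected trunks were digested with Accumax ahead of the sort. Another 2 libraries of the series, neural crest from embryos in 100 µM cyclopamine, enter only where a fit over all 6 libraries is named. Each gate rests on a single reporter, so a library holds every cell in which that reporter was bright enough, and how many embryos or cells stand behind a library is not stated in these sources. Slow-twitch appears in the titles of the untreated neural crest libraries although tissue and source are given there as neural crest, and they are treated as neural crest here. Nothing in the labels says that libraries of a group came from separate clutches, so p-values measure the spread between these libraries, which may be technical.

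Slow muscle is the first muscle to differentiate in the zebrafish trunk. Hedgehog signals from the notochord and floor plate act on adaxial cells beside the notochord, which switch on prdm1a, adopt the slow fate and migrate outward to form a superficial layer of mononucleate fibres, while the muscle pioneers among them stay at the horizontal myoseptum and express engrailed genes. Trunk neural crest cells leave the dorsal neural tube at about the same stage, pass the somite along medial and lateral paths, and give rise to pigment cells, Schwann cells and peripheral neurons. The transcription factor gene sox10 is needed for their non-skeletal derivatives.

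Libraries held 24358588 and 26441238 counts in slow muscle and 17504692 and 15355583 counts in neural crest. Spearman correlations across genes were 0.912 between the slow muscle libraries, 0.917 between the neural crest libraries, and 0.647 to 0.679 between libraries of different sorts. A first principal component that separated the sorts took 68.8% of the variance. Low counts were rare: in slow muscle 16156 and 17275 genes had a count and 15584 and 16710 of them had at least 10, and in neural crest 15591 and 15281 genes had a count and 15032 and 14720 had at least 10. Between 122 and 344 genes per library were at 0 where the replicate had at least 100 counts. A gene at 0 in a library therefore may still have been expressed there. Levels below are CPM, in which each library is brought to the same total with TMM scaling; they are not per length and are compared only within a gene. A count of 0 allows up to 0.121 to 0.170 CPM by counting error, taking 3 counts in a library as the limit.

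A gene is called here when its edgeR quasi-likelihood adjusted p (Benjamini-Hochberg over all 16701 genes) was under 0.05. Slow muscle was higher than neural crest at 1611 genes (9.65%) and lower at 759 genes (4.54%). The libraries of the sorts did not overlap at any called gene, nor at many that were not called: slow muscle lay wholly above neural crest at 5911 genes (35.4%) and wholly below it at 4788 (28.7%). Under upper quartile scaling, 55.5% of calls were higher rather than 68.0%, and the median log2 fold change over all genes was -0.15 rather than 0.08. Putting all 6 libraries in 1 fit left 293 genes higher and 158 lower, and the same fit without cyclopamine neural crest replicate 4 called 1517 higher and 790 lower. The filter was passed through slow muscle alone by 1224 genes and through neural crest alone by 485, and 414 of the higher and 102 of the lower calls came from these genes, which had to differ to be tested. At the edge of the filter, the second highest count was exactly 10 at 14 tested genes and 9 at 23 genes that were left out. Where a count or call is given below without a library, libraries were left out 1 at a time. The shares of all tested genes are the background against which the counts of each gene list below are to be read. Members of the lists were chosen with earlier results of these data known. A list's share or median therefore describes its members and is not a test of the list. Where a list with 10 or more tested genes had 0 lower calls by edgeR, it held 0 to 7 lower genes at an unadjusted p under 0.05 and 0 to 7 by DESeq2, the most being for myeloid genes; 0 higher calls went with 0 to 3 and 0 to 3.

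**Figure D1:**
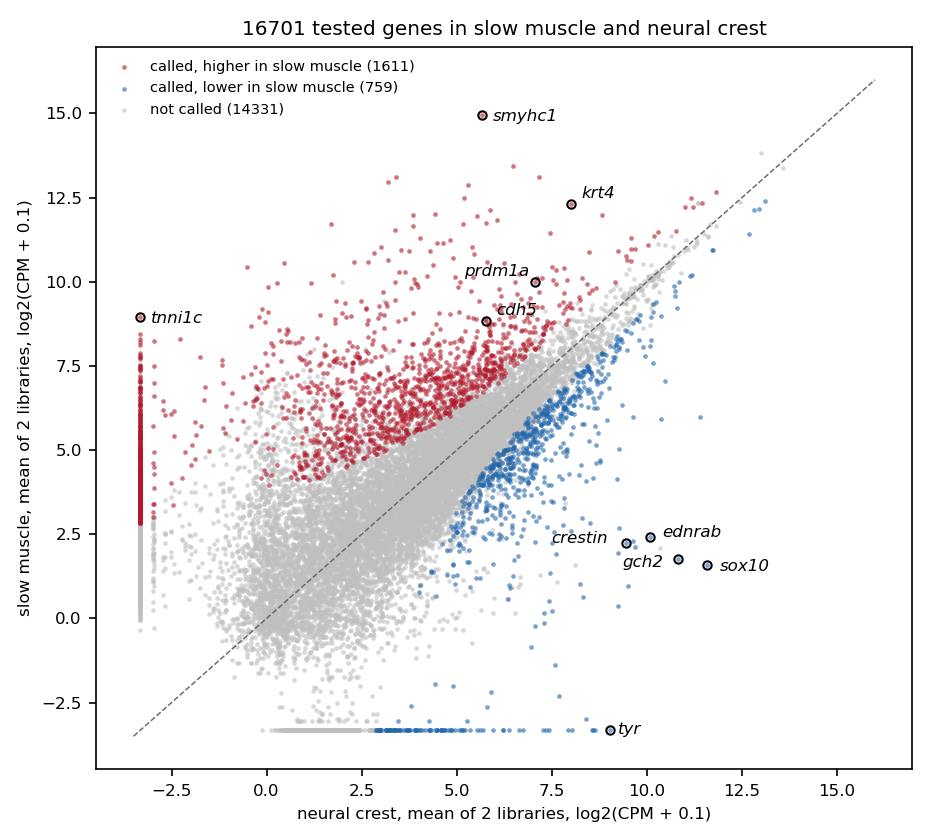
Mean level of each tested gene in slow muscle (vertical axis) against neural crest (horizontal axis), each as log2 of the mean CPM of 2 libraries plus 0.1, with called genes in colour and a dashed line at equal levels. The 1611 genes higher in slow muscle and 759 lower lie on opposite sides of the line, and genes with no count in a sort form a straight edge at the left or the bottom.

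The genes behind the reporters separated the sorts. Cells were gated on reporters of these genes, so their differences check the labels and are no independent result. sox10 had 1.81 and 4.04 CPM in slow muscle, against 3153 and 3036 CPM in neural crest. sox10 differed by -10.03 ± 0.54 (SE) on the log2 scale (edgeR adjusted p = 0.00581). prdm1a had 1007 and 1016 CPM in slow muscle, against 139 and 127 CPM in neural crest. prdm1a differed by 2.93 ± 0.18 (SE) on the log2 scale (edgeR adjusted p = 0.00600). All slow muscle libraries lay on the labelled side of all neural crest libraries at both genes, with sox10 close to absent from slow muscle and prdm1a present in both sorts. prdm1a is also known as a gene of the early neural crest. cdon and boc, the Hedgehog co-receptor genes named in the study's title, were not called: cdon had 189 and 162 CPM in slow muscle, against 96.6 and 134 CPM in neural crest (adjusted p = 0.175). boc had 90.1 and 108 CPM in slow muscle, against 60.2 and 54.7 CPM in neural crest (adjusted p = 0.0925).

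Genes of the slow contractile apparatus were higher in slow muscle, where their levels summed to 87432 and 38462 CPM, against 555 and 546 CPM in neural crest. Of 21 listed genes 14 were tested, 4 of which passed the filter through slow muscle alone, and 10 were higher in slow muscle and 0 lower, with a median log2 fold change of 9.51 over the tested members against 0.08 over all tested genes. The slow myosin heavy chain gene smyhc1 had 43329 and 20710.3 CPM in slow muscle, against 45.1 and 56.5 CPM in neural crest. smyhc1 differed by 9.30 ± 0.55 (SE) on the log2 scale (edgeR adjusted p = 0.00581). Its neighbour smyhc3 had 424 and 211 CPM in slow muscle, against 0 counts in both neural crest libraries. smyhc2 had 4647 and 2087 CPM in slow muscle, against 0 and 6.23 CPM in neural crest. Every slow muscle value of these genes was far above every neural crest value, and slow muscle replicate 1 was higher than replicate 2; the smyhc genes are near-identical copies, so reads may be divided among them unevenly. Myosin light chain genes followed the same order, with 12900.0 and 4943 CPM in slow muscle, against 18.3 and 2.78 CPM in neural crest for myl10. myl13 had 11816 and 4294 CPM in slow muscle, against 10.35 and 7.76 CPM in neural crest. myl10 differed by 9.72 ± 1.33 (SE) and myl13 by 9.80 ± 0.74 (SE) on the log2 scale (edgeR adjusted p = 0.0176 and 0.00645). The troponin genes of slow fibres were higher as well: tnnt2c (troponin T) had 5378 and 2663 CPM in slow muscle, against 11.3 and 17.2 CPM in neural crest. tnnc1b (troponin C) had 2147 and 648 CPM in slow muscle, against 1.21 and 0 CPM in neural crest. tnni1c (troponin I) had 712 and 278 CPM in slow muscle, against 0 counts in both neural crest libraries. The tropomyosin gene tpm3 differed least among those called, with 5637 and 2433 CPM in slow muscle, against 462 and 441 CPM in neural crest, and was well represented in both sorts. tpm3 differed by 3.16 ± 0.45 (SE) on the log2 scale (edgeR adjusted p = 0.0194). myh7, a slow and cardiac myosin gene, was not called, with 0 counts in both slow muscle libraries, against 3.33 and 7.03 CPM in neural crest (adjusted p = 0.0685). smyhc2 lost its call without either slow muscle library (adjusted p = 0.0733 to 0.0814).

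Fast muscle genes were also present in the slow muscle sort. Among 23 tested genes of 30 listed, 8 were higher in slow muscle and 0 lower, 4 tested members having passed the filter through slow muscle alone (median log2 fold change 3.79). tnnc2, a fast troponin C gene, had 4423 and 2009 CPM in slow muscle, against 12.4 and 16.1 CPM in neural crest. tnnc2 differed by 7.82 ± 0.56 (SE) on the log2 scale (edgeR adjusted p = 0.00632). tnni2b.1, a fast troponin I gene, had 3315 and 1710.0 CPM in slow muscle, against 15.6 and 16.9 CPM in neural crest. tpma (tropomyosin) had 3142 and 1692 CPM in slow muscle, against 20.4 and 35.6 CPM in neural crest. actn3b (alpha-actinin) had 2437 and 1258 CPM in slow muscle, against 4.69 and 9.41 CPM in neural crest. These levels stood above neural crest in both slow muscle libraries and again were higher in slow muscle replicate 1. mylpfa, a defining marker of fast fibres, had 349.6 and 154 CPM in slow muscle, against 17.01 and 22.4 CPM in neural crest. mylpfa differed by 3.67 ± 0.49 (SE) on the log2 scale (edgeR adjusted p = 0.0168). The other defining fast marker, myhz2, had 50.3 and 32.2 CPM in slow muscle, against 14.3 and 16.4 CPM in neural crest and was not called (adjusted p = 0.0762); its libraries did not overlap.

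In the scaffold of the sarcomere 34 of 45 tested genes were higher and 0 lower (57 listed, 8 tested through slow muscle alone; median log2 fold change 6.97 (6.81 with genes at 0 in a sort set to their bound)). Titin is the spring that spans part of the sarcomere, and its gene ttn.1 had 4634 and 2299.5 CPM in slow muscle, against 58.2 and 50.7 CPM in neural crest. ttn.2 had 5344 and 2567 CPM in slow muscle, against 54.3 and 39.0 CPM in neural crest. neb (nebulin, along the thin filament) had 2766 and 1449.7 CPM in slow muscle, against 9.29 and 6.63 CPM in neural crest. neb differed by 8.05 ± 0.51 (SE) on the log2 scale (edgeR adjusted p = 0.00600). Desmin, the muscle intermediate filament, was represented by desma at 3017 and 1529.7 CPM in slow muscle, against 33.8 and 15.8 CPM in neural crest. desma differed by 6.52 ± 0.63 (SE) on the log2 scale (edgeR adjusted p = 0.00868). In slow muscle each of these genes exceeded the higher neural crest library many times over in both replicates. The skeletal alpha-actin gene acta1a had 9499 and 5613 CPM in slow muscle, against 32.6 and 46.0 CPM in neural crest, and the cardiac-type actin gene actc1b had 15681 and 6581 CPM in slow muscle, against 79.4 and 98.3 CPM in neural crest; the sequences of the actin genes are so alike that their counts cannot be assigned to a copy with confidence. xirp1, a gene of the Xin actin-binding repeat family, had 1368 and 1000.4 CPM in slow muscle, against 3.48 and 3.003 CPM in neural crest. xirp1 differed by 8.51 ± 0.32 (SE) on the log2 scale (edgeR adjusted p = 0.00581). smpx, which encodes a small muscle protein, had 338 and 93.3 CPM in slow muscle, against 0 counts in both neural crest libraries. All 34 called genes were higher in slow muscle replicate 1 than in replicate 2. Genes outside the lists were among those with the largest changes, namely tns2b (tensin), with 1674 and 1359 CPM in slow muscle, against 1.97 and 0.567 CPM in neural crest, and txlnba (a taxilin), with 1847 and 1254 CPM in slow muscle, against 3.03 and 6.57 CPM in neural crest.

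A list of muscle assembly and upkeep holds myosin chaperones, small heat shock genes, Kelch, Trim and Smyd genes and muscle ankyrin repeat genes. 20 of its 28 tested genes were called higher and 0 lower (31 listed, 7 tested through slow muscle alone; median log2 fold change 6.003 (5.92 with genes at 0 in a sort set to their bound)). Of the myosin chaperone pair unc45b and hsp90aa1.1, unc45b had 1241 and 1019 CPM in slow muscle, against 21.2 and 41.1 CPM in neural crest. hsp90aa1.1 had 4163 and 3161 CPM in slow muscle, against 53.7 and 79.1 CPM in neural crest. unc45b differed by 5.18 ± 0.43 (SE) and hsp90aa1.1 by 5.79 ± 0.33 (SE) on the log2 scale (edgeR adjusted p = 0.00678 and 0.00581). smyd1b, whose methyltransferase-family product is needed for thick filament assembly, had 1189 and 758 CPM in slow muscle, against 23.9 and 6.86 CPM in neural crest. smyd1b differed by 5.98 ± 0.76 (SE) on the log2 scale (edgeR adjusted p = 0.0150). Kelch proteins of the sarcomere were represented by klhl41b, with 1076 and 718 CPM in slow muscle, against 12.3 and 15.2 CPM in neural crest, and klhl31, with 1452 and 707 CPM in slow muscle, against 11.3 and 17.7 CPM in neural crest. Both libraries of slow muscle lay above both of neural crest at all of these genes, and neural crest held low but nonzero levels. Of the small heat shock genes hspb1 and hspb8, hspb1 had 1368 and 628 CPM in slow muscle, against 11.002 and 18.6 CPM in neural crest. hspb8 had 746 and 423 CPM in slow muscle, against 71.4 and 61.5 CPM in neural crest.

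Coupling of the action potential to calcium release involves voltage-gated channels of the transverse tubule, ryanodine receptors of the sarcoplasmic reticulum and the calcium pump that refills it. Of these genes 27 of 33 were tested, 10 through slow muscle alone, and 17 were higher and 0 lower (median log2 fold change 6.78 (6.25 with genes at 0 in a sort set to their bound)). The calcium pump gene atp2a1 had 7023 and 1872 CPM in slow muscle, against 35.5 and 81.3 CPM in neural crest. atp2a1 differed by 6.25 ± 0.91 (SE) on the log2 scale (edgeR adjusted p = 0.0201). The ryanodine receptor gene ryr1a had 1435 and 557 CPM in slow muscle, against 2.22 and 0 CPM in neural crest. ryr1b had 421 and 238 CPM in slow muscle, against 4.90 and 7.54 CPM in neural crest. ryr1a differed by 9.77 ± 1.59 (SE) and ryr1b by 5.73 ± 0.46 (SE) on the log2 scale (edgeR adjusted p = 0.0260 and 0.00671). Of the channel subunit genes cacna1sb and cacng1a, cacna1sb had 219 and 116 CPM in slow muscle, against 1.92 and 2.27 CPM in neural crest. cacng1a had 306 and 144 CPM in slow muscle, against 0 counts in both neural crest libraries. Calcium storage and tubule genes showed the same order, with 1025 and 355 CPM in slow muscle, against 1.21 and 5.67 CPM in neural crest for casq2 (calsequestrin). srl (sarcalumenin) had 2187 and 911 CPM in slow muscle, against 5.602 and 6.97 CPM in neural crest. The groups were separate at each of these genes, and slow muscle replicate 1 was higher than replicate 2 at all of them. The pump gene atp2a2b, which was not called, had 126 and 225 CPM in slow muscle, against 362 and 333 CPM in neural crest (adjusted p = 0.110). ryr1a lost its call without slow muscle replicate 1 (adjusted p = 0.0561).

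Genes of the postsynaptic membrane, where motor axons contact muscle, were higher too. 10 of 14 tested genes were called higher and 0 lower (16 listed, 3 tested through slow muscle alone; median log2 fold change 6.08 (5.56 with genes at 0 in a sort set to their bound)). The acetylcholine receptor subunit gene chrna1 had 521 and 262 CPM in slow muscle, against 8.68 and 8.27 CPM in neural crest. chrnd had 315 and 147 CPM in slow muscle, against 1.67 and 0.397 CPM in neural crest. chrng had 468 and 271 CPM in slow muscle, against 2.78 and 0 CPM in neural crest. musk, whose kinase organises receptor clusters, had 313 and 243 CPM in slow muscle, against 3.68 and 1.93 CPM in neural crest, and rapsn, whose product anchors the receptors, had 95.8 and 58.5 CPM in slow muscle, against 2.27 and 4.59 CPM in neural crest. musk differed by 6.62 ± 0.45 (SE) and rapsn by 4.49 ± 0.54 (SE) on the log2 scale (edgeR adjusted p = 0.00622 and 0.0140). ache (acetylcholinesterase) had 175 and 87.97 CPM in slow muscle, against 10.6 and 11.8 CPM in neural crest. ache differed by 3.55 ± 0.43 (SE) on the log2 scale (edgeR adjusted p = 0.0140). The organiser agrn (agrin) was present in both sorts at 272 and 453 CPM in slow muscle, against 300.4 and 247 CPM in neural crest and was not called (adjusted p = 0.450), and its receptor gene lrp4 had 85.6 and 101.4 CPM in slow muscle, against 38.7 and 15.8 CPM in neural crest (adjusted p = 0.0798). The list held 4 higher genes without slow muscle replicate 1. chrng lost its call without either slow muscle library (adjusted p = 0.0715 to 0.0876). rapsn lost its call without slow muscle replicate 1 (adjusted p = 0.0524).

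**Figure D2:**
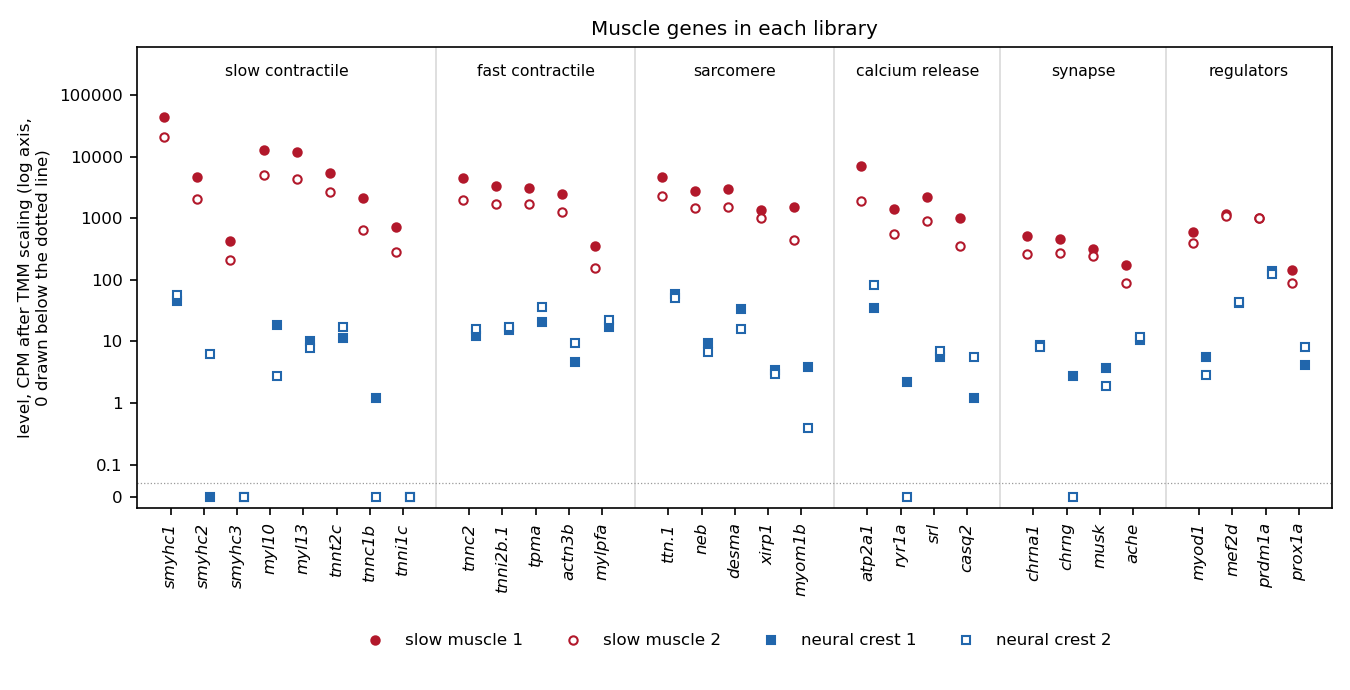
Level of 30 muscle genes in each library (CPM on a log axis, circles for slow muscle and squares for neural crest, filled for replicate 1 and open for replicate 2; a level of 0 is drawn under the dotted line). At every gene shown both circles stand above both squares, and at the contractile genes the filled circle stands above the open one.

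The dystrophin complex ties the fibre's cytoskeleton to the matrix. 15 of 29 tested genes of this complex and of the costamere were higher and 0 lower (34 listed, 8 tested through slow muscle alone; median log2 fold change 3.80). dmd (dystrophin) had 289 and 169.6 CPM in slow muscle, against 10.95 and 22.1 CPM in neural crest. dag1 (dystroglycan) had 589 and 669 CPM in slow muscle, against 64.4 and 77.5 CPM in neural crest. dmd differed by 3.80 ± 0.50 (SE) and dag1 by 3.15 ± 0.22 (SE) on the log2 scale (edgeR adjusted p = 0.0164 and 0.00622). Of the caveolar genes cav3 and cavin4b, cav3 had 279.9 and 139.7 CPM in slow muscle, against 0 counts in both neural crest libraries. cavin4b had 735 and 267 CPM in slow muscle, against 0 and 1.53 CPM in neural crest. itgb1b, a general adhesion gene of the list, had overlapping values, with 267 and 279 CPM in slow muscle, against 262 and 269.7 CPM in neural crest (adjusted p = 0.929). Of 12 tested genes for myoblast fusion 4 were higher, among them the cadherin genes cdh15 (M-cadherin), with 318 and 285 CPM in slow muscle, against 7.57 and 14.4 CPM in neural crest, and cdh2 (N-cadherin), with 656 and 536 CPM in slow muscle, against 61.5 and 82.1 CPM in neural crest. cdh15 differed by 4.78 ± 0.41 (SE) and cdh2 by 3.05 ± 0.26 (SE) on the log2 scale (edgeR adjusted p = 0.00732 and 0.00703). Without slow muscle replicate 1 the dystrophin list held 6 higher genes, and the fusion list held 2 without slow muscle replicate 1 and 2 without slow muscle replicate 2. cavin4b lost its call without slow muscle replicate 1 (adjusted p = 0.0611).

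Among transcription factors of myogenesis 16 of 28 tested genes were higher and 0 lower (35 listed, 2 tested through slow muscle alone; median log2 fold change 3.53). The bHLH factor gene myod1, which commits cells to muscle, had 603 and 399 CPM in slow muscle, against 5.50 and 2.83 CPM in neural crest. myod1 differed by 6.90 ± 0.50 (SE) on the log2 scale (edgeR adjusted p = 0.00636). myog (myogenin), a factor of differentiation, had 181 and 185 CPM in slow muscle, against 19.3 and 12.9 CPM in neural crest. myog differed by 3.51 ± 0.30 (SE) on the log2 scale (edgeR adjusted p = 0.00732). Genes of the Mef2 family, which act with the bHLH factors, were higher, with 1172 and 1068 CPM in slow muscle, against 41.5 and 44.4 CPM in neural crest for mef2d. mef2ca had 1595 and 996 CPM in slow muscle, against 226 and 166 CPM in neural crest. mef2d differed by 4.71 ± 0.20 (SE) and mef2ca by 2.73 ± 0.33 (SE) on the log2 scale (edgeR adjusted p = 0.00581 and 0.0137). At these 4 genes the slow muscle libraries stood above the neural crest libraries and neural crest was not at 0, and the replicates of slow muscle differed less than at the contractile genes. vgll2b, a cofactor gene of somitic muscle, had 384 and 215 CPM in slow muscle, against 2.73 and 0 CPM in neural crest. The list held 9 higher genes without slow muscle replicate 1. vgll2b lost its call without either slow muscle library (adjusted p = 0.0745 to 0.0966).

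Of the genes of slow fate and muscle pioneers 4 of 13 tested were higher and 1 lower (16 listed, 2 tested through slow muscle alone, median log2 fold change 2.02). The 4 higher genes include prdm1a, the gene behind the slow muscle gate. Besides prdm1a these were prox1a, which acts in terminal slow differentiation, with 147 and 88.3 CPM in slow muscle, against 4.19 and 8.10 CPM in neural crest, the engrailed gene en1a, with 50.1 and 28.005 CPM in slow muscle, against 0 counts in both neural crest libraries, and tbx15, with 13.8 and 18.5 CPM in slow muscle, against 0 counts in both neural crest libraries. prox1a differed by 4.26 ± 0.51 (SE) on the log2 scale (edgeR adjusted p = 0.0134). The T-box gene tbx2b was lower in slow muscle, with 14.8 and 10.7 CPM in slow muscle, against 117 and 67.9 CPM in neural crest. tbx2b differed by -2.86 ± 0.41 (SE) on the log2 scale (edgeR adjusted p = 0.0193). sox6, a repressor of slow genes in fast muscle, had 34.3 and 47.0 CPM in slow muscle, against 97.8 and 80.9 CPM in neural crest and missed the threshold (adjusted p = 0.0651); the libraries did not overlap. Without slow muscle replicate 1 the list held 2 higher genes. Muscle RNA-binding genes were 7 higher and 2 lower of 28 tested, with the splicing regulator genes rbfox1l at 1070.0 and 781 CPM in slow muscle, against 25.8 and 39.1 CPM in neural crest and rbm24a at 791 and 578 CPM in slow muscle, against 45.1 and 51.1 CPM in neural crest. rbfox1l differed by 4.83 ± 0.34 (SE) and rbm24a by 3.83 ± 0.26 (SE) on the log2 scale (edgeR adjusted p = 0.00632 and 0.00622). esrp1 and esrp2 on the same list, known as splicing regulators of epithelia, were higher as well, with 74.8 and 137 CPM in slow muscle, against 1.21 and 5.16 CPM in neural crest for esrp1. esrp2 had 67.4 and 112 CPM in slow muscle, against 0 and 1.42 CPM in neural crest. The neuronal gene elavl3 and the polypyrimidine tract binding gene ptbp1b were lower, with 37.9 and 45.9 CPM in slow muscle, against 136 and 131 CPM in neural crest for elavl3. ptbp1b had 169 and 222 CPM in slow muscle, against 484 and 389.7 CPM in neural crest. The RNA-binding list held 4 higher genes without either slow muscle library, 1 lower without slow muscle replicate 1, 3 lower without slow muscle replicate 2 and 0 lower without either neural crest library. en1a lost its call without slow muscle replicate 1 (adjusted p = 0.0539). tbx15, tbx2b, esrp1 and esrp2 lost their calls without either slow muscle library (adjusted p = 0.0564 to 0.137). elavl3 lost its call without either neural crest library (adjusted p = 0.0615 to 0.0648). ptbp1b lost its call without either neural crest library or slow muscle replicate 1 (adjusted p = 0.0846 to 0.182).

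Energy metabolism lists held more higher than lower calls, as did all tested genes (9.65% and 4.54%). Shares higher and lower were 33.3% and 4.76% for phosphagen and glycogen genes, and 44.4% and 3.70% for glycolysis genes. The filter was passed through slow muscle alone by 3 phosphagen and glycogen genes and 5 glycolysis genes. In the phosphagen and glycogen list 7 of 21 tested genes were higher and 1 lower (median log2 fold change 2.84). Of the muscle creatine kinase genes ckma and ckmb, ckma had 2476 and 721 CPM in slow muscle, against 8.28 and 9.97 CPM in neural crest. ckmb had 3581 and 997 CPM in slow muscle, against 14.1 and 30.0 CPM in neural crest. ckma differed by 7.45 ± 0.78 (SE) and ckmb by 6.70 ± 0.89 (SE) on the log2 scale (edgeR adjusted p = 0.0102 and 0.0164). The brain-type gene ckbb went the other way, with 9.37 and 12.2 CPM in slow muscle, against 167 and 207 CPM in neural crest. ckbb differed by -4.11 ± 0.29 (SE) on the log2 scale (edgeR adjusted p = 0.00632). In glycolysis 12 of 27 tested genes were higher and 1 lower (median log2 fold change 2.17), led by aldoab (aldolase), with 2811 and 1119 CPM in slow muscle, against 8.83 and 14.1 CPM in neural crest, and gapdh, with 1301 and 522 CPM in slow muscle, against 16.3 and 14.96 CPM in neural crest. aldoab differed by 7.42 ± 0.66 (SE) and gapdh by 5.86 ± 0.56 (SE) on the log2 scale (edgeR adjusted p = 0.00787 and 0.00856). The slow muscle libraries stood apart from neural crest at these 4 higher genes but differed from each other, replicate 1 being higher. Without slow muscle replicate 1 the phosphagen list held 2 higher and 2 lower genes.

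Nuclear genes of mitochondrial metabolism were higher by smaller factors. 33 of 52 tested genes were called higher and 1 lower, with a median log2 fold change of 1.62. Of the 52, 7 passed the filter through slow muscle alone. The adenine nucleotide carrier gene slc25a5 had 5314 and 4176 CPM in slow muscle, against 2004 and 2104 CPM in neural crest, the cytochrome c gene cycsb had 707 and 524 CPM in slow muscle, against 149 and 157 CPM in neural crest, and the ATP synthase gene atp5f1b had 2175 and 1315 CPM in slow muscle, against 735 and 655 CPM in neural crest. slc25a5 differed by 1.21 ± 0.19 (SE), cycsb by 2.01 ± 0.23 (SE) and atp5f1b by 1.33 ± 0.29 (SE) on the log2 scale (edgeR adjusted p = 0.0236, 0.0122 and 0.0484). The fatty acid binding gene fabp3 was lower, with 348 and 191 CPM in slow muscle, against 941 and 959 CPM in neural crest. fabp3 differed by -1.82 ± 0.33 (SE) on the log2 scale (edgeR adjusted p = 0.0337). Of the 23 tested genes of the mitochondrial genome 6 were higher, among them mt-cyb (cytochrome b), with 5520.0 and 4074 CPM in slow muscle, against 2285 and 2483 CPM in neural crest. mt-cyb differed by 1.01 ± 0.21 (SE) on the log2 scale (edgeR adjusted p = 0.0434). Both counts depended on single libraries. The nuclear list held fewer higher genes without slow muscle replicate 1 and without either neural crest library. The mitochondrial genome list held more higher genes without either slow muscle library and fewer without either neural crest library. By edgeR 0 of the 80 tested genes of cytosolic ribosomal proteins were called, with 1 lower at an unadjusted p under 0.05 and 1 lower by DESeq2 (median log2 fold change -0.04); rps2, for example, had 3665 and 2737 CPM in slow muscle, against 3600.4 and 3635 CPM in neural crest. slc25a5, cycsb, atp5f1b, fabp3 and mt-cyb lost their calls without either neural crest library (adjusted p = 0.0503 to 0.185).

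Neural crest regulators held more lower than higher calls. Of 42 listed genes 39 were tested, 1 through neural crest alone, and 16 were lower and 3 higher (median log2 fold change -0.73). The lower genes include sox10 and the higher ones prdm1a, the genes behind the gates. crestin, a transcript of premigratory and migrating crest in zebrafish, had 4.63 and 4.65 CPM in slow muscle, against 628 and 775 CPM in neural crest. crestin differed by -7.24 ± 0.26 (SE) on the log2 scale (edgeR adjusted p = 0.00581). foxd3, a gene of early crest and of glial progenitors, had 6.45 and 5.21 CPM in slow muscle, against 211 and 163 CPM in neural crest. foxd3 differed by -5.002 ± 0.30 (SE) on the log2 scale (edgeR adjusted p = 0.00581). pax3a had 4.84 and 4.61 CPM in slow muscle, against 120.1 and 144 CPM in neural crest. tfap2a had 21.8 and 43.8 CPM in slow muscle, against 652 and 571 CPM in neural crest. zeb2a had 48.2 and 74.0 CPM in slow muscle, against 1427 and 1246 CPM in neural crest. pax3a differed by -4.81 ± 0.28 (SE), tfap2a by -4.22 ± 0.42 (SE) and zeb2a by -4.45 ± 0.30 (SE) on the log2 scale (edgeR adjusted p = 0.00581, 0.00918 and 0.00622). The slow muscle libraries lay below the neural crest libraries at each of these, and were above 0 at all of them. Of the 39 tested members 20 were not called, snai1b and snai2 among them. snai1b had 180.4 and 149 CPM in slow muscle, against 177 and 186 CPM in neural crest (adjusted p = 0.738). snai2 had 103 and 142 CPM in slow muscle, against 211 and 169 CPM in neural crest (adjusted p = 0.171). Of the 3 higher members, msx2a and prdm1a are named here, with 9.17 and 15.4 CPM in slow muscle, against 0 counts in both neural crest libraries for msx2a, and 1 was higher without slow muscle replicate 2. msx2a lost its call without either slow muscle library (adjusted p = 0.0912 to 0.142).

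Melanophores, the black pigment cells, are specified by mitfa and make melanin through tyr, dct and tyrp1b. 22 of 28 tested genes were lower in slow muscle and 0 higher (34 listed, 12 tested through neural crest alone; median log2 fold change -4.88). mitfa had 0 counts in both slow muscle libraries, against 271 and 257 CPM in neural crest. tyr had 0 counts in both slow muscle libraries, against 575 and 473 CPM in neural crest. dct had 0 counts in both slow muscle libraries, against 181 and 129 CPM in neural crest. tyrp1b had 0 counts in both slow muscle libraries, against 164 and 178 CPM in neural crest. pmela, the amyloid matrix gene of the melanosome, had 0 counts in both slow muscle libraries, against 415 and 332 CPM in neural crest. Both slow muscle libraries were at 0 for all of these genes, so no fold is given, and the neural crest libraries were alike. tspan36, a tetraspanin gene of pigment cells, had 15.97 and 19.5 CPM in slow muscle, against 625 and 575 CPM in neural crest. tspan36 differed by -5.08 ± 0.23 (SE) on the log2 scale (edgeR adjusted p = 0.00581). rab32a, a gene of organelle traffic, was lower too, with 6.75 and 15.11 CPM in slow muscle, against 160.6 and 146 CPM in neural crest. rab32a differed by -3.80 ± 0.47 (SE) on the log2 scale (edgeR adjusted p = 0.0145). tfeb, a regulator of lysosomes, had 43.3 and 24.97 CPM in slow muscle, against 24.3 and 22.2 CPM in neural crest (adjusted p = 0.433).

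Xanthophores, the yellow pigment cells, need pax7 genes and csf1ra and make pteridines from GTP through gch2, pts and related enzymes. 15 of 24 tested genes were lower in slow muscle and 0 higher (28 listed, 5 tested through neural crest alone; median log2 fold change -7.43 (-7.32 with genes at 0 in a sort set to their bound)). pax7b had 4.84 and 2.67 CPM in slow muscle, against 659 and 544 CPM in neural crest. pax7a had 0.0504 and 0 CPM in slow muscle, against 350.2 and 323 CPM in neural crest. pax7b differed by -7.33 ± 0.43 (SE) on the log2 scale (edgeR adjusted p = 0.00581). The GTP cyclohydrolase gene gch2 had 0 and 6.63 CPM in slow muscle, against 1814 and 1822 CPM in neural crest, and pts, the next enzyme, had 2.22 and 1.45 CPM in slow muscle, against 794 and 655 CPM in neural crest. gch2 differed by -9.07 ± 1.88 (SE) and pts by -8.63 ± 0.36 (SE) on the log2 scale (edgeR adjusted p = 0.0434 and 0.00581). The colony stimulating factor receptor gene csf1ra had 0.907 and 0 CPM in slow muscle, against 125 and 121 CPM in neural crest. csf1ra differed by -8.15 ± 1.32 (SE) on the log2 scale (edgeR adjusted p = 0.0258). No slow muscle value came near a neural crest value, and gch2, found in only 1 slow muscle library, was close to the threshold. aox5 had 0 and 8.41 CPM in slow muscle, against 1296 and 1328 CPM in neural crest and missed the threshold (adjusted p = 0.0550). Among solute carriers of xanthophore differentiation slc2a11b had 6.70 and 1.74 CPM in slow muscle, against 808 and 832 CPM in neural crest. slc2a15b had 1.01 and 1.90 CPM in slow muscle, against 315 and 328 CPM in neural crest. akr1b1.1, an aldo-keto reductase gene outside the list, had 2.72 and 7.03 CPM in slow muscle, against 843 and 743 CPM in neural crest. akr1b1.1 differed by -7.34 ± 0.59 (SE) on the log2 scale (edgeR adjusted p = 0.00666). gch2 lost its call without either neural crest library (adjusted p = 0.0509 to 0.0518).

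Iridophores reflect light from purine crystals, and their list joins ltk and pnp4a with the enzymes of purine synthesis that all dividing cells use. 12 of 23 tested genes were lower and 3 higher (3 tested through neural crest alone, median log2 fold change -2.36). The receptor kinase gene ltk had 0 counts in both slow muscle libraries, against 68.3 and 79.7 CPM in neural crest, and the purine nucleoside phosphorylase gene pnp4a had 0 counts in both slow muscle libraries, against 90.1 and 74.3 CPM in neural crest. The IMP dehydrogenase gene impdh1b had 62.6 and 62.6 CPM in slow muscle, against 2639.9 and 2722 CPM in neural crest. gart had 16.98 and 16.9 CPM in slow muscle, against 325 and 346 CPM in neural crest. paics had 25.99 and 21.4 CPM in slow muscle, against 312 and 306 CPM in neural crest. impdh1b differed by -5.42 ± 0.19 (SE), gart by -4.31 ± 0.21 (SE) and paics by -3.71 ± 0.23 (SE) on the log2 scale (edgeR adjusted p = 0.00581, 0.00581 and 0.00600). Neural crest was higher in both libraries at each of these. The purine salvage gene hprt1 had 50.3 and 44.2 CPM in slow muscle, against 38.1 and 51.3 CPM in neural crest (adjusted p = 0.908). The higher members included tjp1a, a tight junction gene that iridophores share with epithelia, with 253 and 286 CPM in slow muscle, against 104 and 113 CPM in neural crest; leaving out a library left 1 higher gene without slow muscle replicate 1, 1 without neural crest replicate 1, 1 without neural crest replicate 2 and 0 without slow muscle replicate 2. tjp1a differed by 1.31 ± 0.20 (SE) on the log2 scale (edgeR adjusted p = 0.0211). tjp1a lost its call without either neural crest library or slow muscle replicate 2 (adjusted p = 0.0518 to 0.125).

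**Figure D3:**
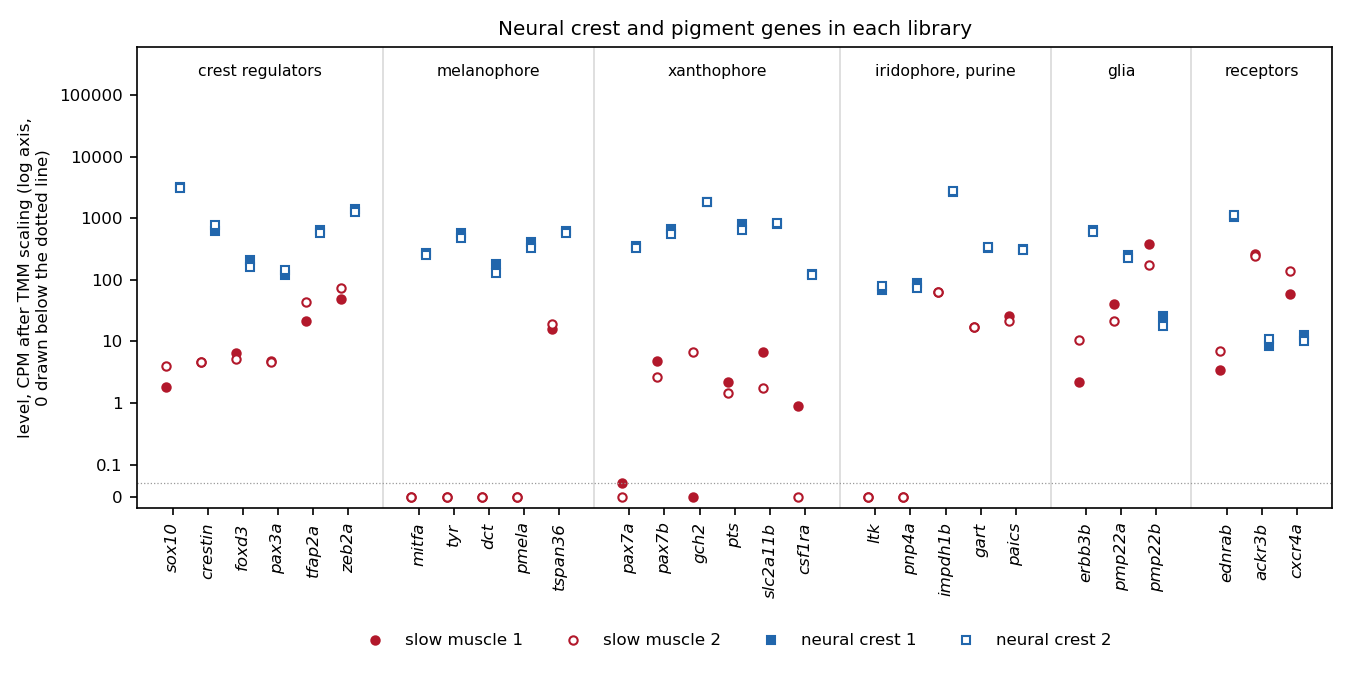
Level of 28 neural crest, pigment, glial and receptor genes in each library (CPM on a log axis, circles for slow muscle and squares for neural crest, filled for replicate 1 and open for replicate 2; a level of 0 is drawn under the dotted line). Circles lie below squares except at pmp22b, ackr3b and cxcr4a.

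Glial genes were divided: 5 of 19 tested genes were lower, among them erbb3b, the neuregulin receptor of Schwann cell precursors, with 2.22 and 10.4 CPM in slow muscle, against 635 and 596 CPM in neural crest, and 2 were higher (1 without either slow muscle library or neural crest replicate 2). erbb3b differed by -6.59 ± 0.86 (SE) on the log2 scale (edgeR adjusted p = 0.0159). The 5 lower genes include sox10, the gene behind the neural crest gate. They also include foxd3 and zeb2a, which are counted among the crest regulators above. The myelin protein gene copies pmp22a and pmp22b differed in direction, with 39.998 and 21.7 CPM in slow muscle, against 255 and 223 CPM in neural crest for pmp22a. pmp22b had 383 and 174 CPM in slow muscle, against 26.2 and 17.7 CPM in neural crest. pmp22a differed by -2.95 ± 0.37 (SE) and pmp22b by 3.66 ± 0.50 (SE) on the log2 scale (edgeR adjusted p = 0.0148 and 0.0175). Of 17 tested genes of sensory and autonomic neurogenesis 1 was higher and 0 were lower. That gene is gata3, known also from the pronephros and other tissues. gata3 had 49.3 and 52.8 CPM in slow muscle, against 7.52 and 8.50 CPM in neural crest. gata3 differed by 2.67 ± 0.33 (SE) on the log2 scale (edgeR adjusted p = 0.0142). neurod1 had 5.09 and 0 CPM in slow muscle, against 54.9 and 36.5 CPM in neural crest and was not called (adjusted p = 0.202). Among neuronal genes 3 of 30 were lower and 0 higher, the axonal adhesion gene cntn2 having 7.30 and 2.95 CPM in slow muscle, against 80.5 and 75.2 CPM in neural crest. cntn2 differed by -3.93 ± 0.55 (SE) on the log2 scale (edgeR adjusted p = 0.0180). Without either neural crest library that count was 1, and it was 5 without slow muscle replicate 2. gata3 lost its call without either slow muscle library (adjusted p = 0.0540 to 0.0570).

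Receptor genes known from crest cells were higher in the neural crest sort for some pathways and in the slow muscle sort for others. Of 30 tested receptor genes 4 were higher and 6 lower (median log2 fold change 0.55). These shares were 13.3% and 20%, against 9.65% and 4.54% of all tested genes. Several of the lower genes, csf1ra, erbb3b and ltk among them, are also counted in the pigment and glial lists above. Which cells of the slow muscle sort held the higher genes was not tested. The endothelin receptor gene ednrab had 3.43 and 6.99 CPM in slow muscle, against 1057 and 1123 CPM in neural crest. ednrab differed by -7.70 ± 0.47 (SE) on the log2 scale (edgeR adjusted p = 0.00600). The chemokine receptor genes ackr3b and cxcr4a were higher in slow muscle, with 260.0 and 245 CPM in slow muscle, against 8.53 and 11.2 CPM in neural crest for ackr3b. cxcr4a had 58.2 and 137 CPM in slow muscle, against 12.7 and 10.26 CPM in neural crest. ackr3b differed by 4.68 ± 0.27 (SE) and cxcr4a by 3.09 ± 0.51 (SE) on the log2 scale (edgeR adjusted p = 0.00581 and 0.0271). Of 21 tested ligand genes 6 were higher and 1 lower, 7 having passed the filter through slow muscle alone. The chemokine gene cxcl12b had 172 and 285 CPM in slow muscle, against 58.2 and 63.5 CPM in neural crest. ngfb (nerve growth factor) had 23.2 and 30.7 CPM in slow muscle, against 0 counts in both neural crest libraries. cxcl12b differed by 1.91 ± 0.31 (SE) on the log2 scale (edgeR adjusted p = 0.0264). kitlga, the ligand of the Kit receptor of melanophores, was lower in slow muscle, with 18.5 and 6.71 CPM in slow muscle, against 115 and 101.3 CPM in neural crest. kitlga differed by -3.11 ± 0.56 (SE) on the log2 scale (edgeR adjusted p = 0.0326). Values of the 2 sorts did not overlap at any of these genes. The ligand list held 1 higher gene without either slow muscle library and 3 without either neural crest library. The receptor list held 2 higher genes without slow muscle replicate 1, 1 without slow muscle replicate 2 and 1 without neural crest replicate 2. cxcr4a lost its call without either neural crest library or slow muscle replicate 2 (adjusted p = 0.0573 to 0.0701). cxcl12b lost its call without either neural crest library (adjusted p = 0.0815 to 0.0913). ngfb lost its call without either slow muscle library (adjusted p = 0.0506 to 0.0601). kitlga lost its call without neural crest replicate 1 (adjusted p = 0.0553).

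Guidance gene families were mostly higher in slow muscle where they were called, and 68.0% of all calls were higher. Shares higher and lower were 23.3% and 2.33% for semaphorins, plexins and neuropilins, and 31.6% and 0% for Slit, Robo, netrin and Unc5. For Eph receptors and ephrins they were 30.4% and 4.35%. Which sorted cells these counts came from was not tested. Among semaphorins, plexins and neuropilins 10 of 43 tested genes were higher and 1 lower. Of the secreted semaphorin genes sema3d and sema3h, sema3d had 75.5 and 56.4 CPM in slow muscle, against 17.2 and 12.7 CPM in neural crest. sema3h had 54.8 and 84.9 CPM in slow muscle, against 2.02 and 1.47 CPM in neural crest, and the receptor gene plxna4 had 19.999 and 23.4 CPM in slow muscle, against 106 and 94.005 CPM in neural crest. sema3d differed by 2.14 ± 0.34 (SE), sema3h by 5.31 ± 0.45 (SE) and plxna4 by -2.202 ± 0.26 (SE) on the log2 scale (edgeR adjusted p = 0.0250, 0.00724 and 0.0130). In the Slit, Robo, netrin and Unc5 list 6 of 19 were higher and 0 lower, including the ligand gene slit3, with 232 and 275 CPM in slow muscle, against 28.1 and 56.3 CPM in neural crest, and its receptor gene robo1, with 199.6 and 286 CPM in slow muscle, against 68.1 and 67.5 CPM in neural crest. slit3 differed by 2.59 ± 0.40 (SE) and robo1 by 1.84 ± 0.26 (SE) on the log2 scale (edgeR adjusted p = 0.0234 and 0.0182). In both pathways the slow muscle libraries were alike and stood above neural crest at the ligands named. Of Eph receptors and ephrins 7 of 23 were higher and 1 lower, led by epha2a, with 562 and 518 CPM in slow muscle, against 24.6 and 21.4 CPM in neural crest; the ligand gene efnb2a had 233 and 208 CPM in slow muscle, against 70.302 and 49.9 CPM in neural crest. epha2a differed by 4.55 ± 0.22 (SE) and efnb2a by 1.88 ± 0.26 (SE) on the log2 scale (edgeR adjusted p = 0.00581 and 0.0180). The Eph list held 1 higher gene without slow muscle replicate 1 and 2 without slow muscle replicate 2, its 1 lower call was lost without any 1 of the 4 libraries, and the semaphorin list held 6 without slow muscle replicate 2. sema3d lost its call without either slow muscle library or neural crest replicate 2 (adjusted p = 0.0522 to 0.0937). slit3 lost its call without either slow muscle library (adjusted p = 0.0644 to 0.0746). robo1 lost its call without either neural crest library (adjusted p = 0.0727 to 0.0760). efnb2a lost its call without slow muscle replicate 1 or neural crest replicate 2 (adjusted p = 0.0532 to 0.0735).

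Matrix lists also held more higher than lower calls, as did all tested genes (9.65% and 4.54%). Shares higher and lower were 48.9% and 4.44% for collagens, and 57.1% and 14.3% for laminins and nidogens. They were 40% and 2.22% for matrix glycoproteins, and 15.2% and 4.35% for metalloproteases and inhibitors. Through slow muscle alone, 3 collagen, 3 laminin and nidogen, 3 glycoprotein and 6 metalloprotease and inhibitor genes passed the filter. Of 45 tested collagen genes 22 were higher and 2 lower (median log2 fold change 2.29). col1a1a had 5608 and 12182 CPM in slow muscle, against 131 and 158 CPM in neural crest, with slow muscle replicate 2 the higher one, and the fibril gene col5a1 had 577 and 436 CPM in slow muscle, against 92.4 and 88.8 CPM in neural crest. col1a1a differed by 5.94 ± 0.49 (SE) and col5a1 by 2.48 ± 0.23 (SE) on the log2 scale (edgeR adjusted p = 0.00684 and 0.00804). Laminins and nidogens, of the basement membrane, were 8 higher and 2 lower of 14 tested: lamb2 had 879 and 516 CPM in slow muscle, against 3.23 and 17.2 CPM in neural crest, while lamb1b had 29.5 and 35.8 CPM in slow muscle, against 121 and 151.1 CPM in neural crest. lamb2 differed by 6.09 ± 0.97 (SE) and lamb1b by -2.06 ± 0.26 (SE) on the log2 scale (edgeR adjusted p = 0.0246 and 0.0148). Paralogues thus lay in opposite directions, as did nid1a, with 501 and 235 CPM in slow muscle, against 8.63 and 5.44 CPM in neural crest, and nid1b, with 141 and 157 CPM in slow muscle, against 299.9 and 281 CPM in neural crest. Of 45 tested matrix glycoprotein genes 18 were higher and 1 lower, among them tnc (tenascin C), with 1606 and 1425 CPM in slow muscle, against 78.0 and 73.7 CPM in neural crest, and efemp2a (a fibulin), with 3621 and 3113 CPM in slow muscle, against 29.6 and 41.4 CPM in neural crest. tnc differed by 4.32 ± 0.20 (SE) and efemp2a by 6.57 ± 0.29 (SE) on the log2 scale (edgeR adjusted p = 0.00581 and 0.00581). Of metalloprotease and inhibitor genes 7 of 46 were higher and 2 lower, adam8a being lower, with 35.9 and 29.7 CPM in slow muscle, against 235 and 242 CPM in neural crest. adam8a differed by -2.86 ± 0.22 (SE) on the log2 scale (edgeR adjusted p = 0.00645). The lower call among the glycoproteins was lost without either slow muscle library or neural crest replicate 2. The laminin list held 1 lower gene without any 1 of the 4 libraries. The collagen list held 12 higher genes without slow muscle replicate 1, the glycoprotein list 12 without slow muscle replicate 1 or 2, and the metalloprotease list 2 without slow muscle replicate 2 and 1 lower without either neural crest library. lamb2 lost its call without either slow muscle library (adjusted p = 0.0575 to 0.0704). nid1b lost its call without any 1 library (adjusted p = 0.0565 to 0.191).

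Integrin and cadherin lists held more higher than lower calls, as did all tested genes (9.65% and 4.54%). Shares higher and lower were 26.9% and 7.69% for integrins, and 27.6% and 13.8% for cadherins and protocadherins. Integrin genes were 7 higher and 2 lower of 26 tested. itga5, of the fibronectin receptor, had 185 and 175 CPM in slow muscle, against 79.8 and 63.6 CPM in neural crest. itgb1a had 150.97 and 112 CPM in slow muscle, against 493 and 426 CPM in neural crest. itga5 differed by 1.32 ± 0.22 (SE) and itgb1a by -1.81 ± 0.24 (SE) on the log2 scale (edgeR adjusted p = 0.0286 and 0.0163). Of 29 tested cadherin and protocadherin genes, 7 passed the filter through slow muscle alone and 3 through neural crest alone. Among the 29, 8 were higher, including cdh15 and cdh2 (given above), and 4 lower. The lower ones were the classical cadherin gene cdh6, with 73.6 and 119 CPM in slow muscle, against 296 and 315 CPM in neural crest, pcdh10a, with 2.32 and 13.3 CPM in slow muscle, against 321 and 302 CPM in neural crest, pcdh10b, with 7.35 and 23.8 CPM in slow muscle, against 191 and 148 CPM in neural crest, and pcdh9, with 0 counts in both slow muscle libraries, against 93.7 and 122 CPM in neural crest. cdh6 differed by -1.67 ± 0.29 (SE) and pcdh10a by -5.31 ± 0.91 (SE) on the log2 scale (edgeR adjusted p = 0.0309 and 0.0293). All of these were higher in both neural crest libraries than in either slow muscle library. The gap junction gene cx43 was higher in slow muscle, with 161.1 and 106 CPM in slow muscle, against 16.8 and 5.72 CPM in neural crest, and cx30.3 was lower, with 26.8 and 29.4 CPM in slow muscle, against 248 and 225 CPM in neural crest. cx43 differed by 3.57 ± 0.62 (SE) and cx30.3 by -3.07 ± 0.22 (SE) on the log2 scale (edgeR adjusted p = 0.0301 and 0.00632). Integrin counts were 1 higher without slow muscle replicate 1 and 2 without slow muscle replicate 2, with 1 lower without slow muscle replicate 1 and 0 without neural crest replicate 1, and cadherin counts 4 higher without slow muscle replicate 2 and 2 lower without neural crest replicate 1. itga5 lost its call without any 1 library (adjusted p = 0.0627 to 0.145). itgb1a and pcdh10b lost their calls without neural crest replicate 1 (adjusted p = 0.0556 to 0.0588). cdh6 lost its call without either neural crest library (adjusted p = 0.0772 to 0.0897). cx43 lost its call without either slow muscle library (adjusted p = 0.0650 to 0.0952).

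Hedgehog signalling patterns slow muscle. Of 24 tested genes of that pathway 5 were higher in the slow muscle sort and 0 lower (median log2 fold change 0.75). These shares were 20.8% and 0%, against 9.65% and 4.54% of all tested genes. Activity of the pathway was not tested. hhip, a ligand-binding inhibitor that the pathway itself induces, had 156 and 125 CPM in slow muscle, against 25.1 and 26.01 CPM in neural crest. hhip differed by 2.46 ± 0.25 (SE) on the log2 scale (edgeR adjusted p = 0.00929). The effector gene gli1, also a target, had 122 and 115 CPM in slow muscle, against 41.8 and 44.9 CPM in neural crest. gli2b had 57.2 and 59.0 CPM in slow muscle, against 6.91 and 11.96 CPM in neural crest. gli1 differed by 1.45 ± 0.22 (SE) and gli2b by 2.62 ± 0.40 (SE) on the log2 scale (edgeR adjusted p = 0.0213 and 0.0229). The co-receptor gene gas1a had 50.9 and 75.2 CPM in slow muscle, against 16.8 and 10.9 CPM in neural crest. gas1a differed by 2.19 ± 0.40 (SE) on the log2 scale (edgeR adjusted p = 0.0335). At these genes both slow muscle libraries stood above both neural crest libraries, though neural crest kept a level above 0. The transducer gene smo had 71.6 and 121 CPM in slow muscle, against 125 and 123 CPM in neural crest and was not called (adjusted p = 0.519). The list held 1 higher gene without either slow muscle library and 3 without neural crest replicate 1. gli1 lost its call without any 1 library (adjusted p = 0.0508 to 0.108). gli2b lost its call without either slow muscle library (adjusted p = 0.0775 to 0.0812). gas1a lost its call without either slow muscle library or neural crest replicate 2 (adjusted p = 0.0649 to 0.108).

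Other signalling lists held more higher than lower calls, as did all tested genes (9.65% and 4.54%). Shares higher and lower were 34.1% and 2.44% for Bmp genes, and 23.5% and 1.96% for Wnt genes. They were 26.5% and 5.88% for Fgf genes, and 17.6% and 0% for Notch genes. The filter was passed through slow muscle alone by 4 Bmp, 5 Wnt, 5 Fgf and 2 Notch genes. Which cells of the slow muscle sort held the higher signalling genes was not tested. For Bmp signalling 14 of 41 tested genes were higher and 1 lower, with 69.8 and 91.6 CPM in slow muscle, against 8.53 and 5.50 CPM in neural crest for the ligand gene bmp4 and 232 and 242 CPM in slow muscle, against 6.31 and 6.18 CPM in neural crest for the follistatin-like gene fstl1a. bmp4 differed by 3.52 ± 0.39 (SE) and fstl1a by 5.25 ± 0.23 (SE) on the log2 scale (edgeR adjusted p = 0.0115 and 0.00581). For Wnt signalling 12 of 51 were higher and 1 lower: the ligand gene wnt5b had 49.0 and 104 CPM in slow muscle, against 14.3 and 13.9 CPM in neural crest, and lef1, a nuclear effector of the pathway, had 22.2 and 37.6 CPM in slow muscle, against 176 and 205 CPM in neural crest. wnt5b differed by 2.44 ± 0.45 (SE) and lef1 by -2.67 ± 0.34 (SE) on the log2 scale (edgeR adjusted p = 0.0350 and 0.0152). For Fgf signalling 9 of 34 were higher and 2 lower. Its transcriptional target genes did not move as 1 group, since etv4 was higher, with 82.01 and 105 CPM in slow muscle, against 8.38 and 14.9 CPM in neural crest, while the feedback inhibitor gene spry4 was lower, with 244 and 212 CPM in slow muscle, against 486 and 481 CPM in neural crest. etv4 differed by 3.01 ± 0.41 (SE) and spry4 by -1.08 ± 0.18 (SE) on the log2 scale (edgeR adjusted p = 0.0169 and 0.0281). For Notch signalling 6 of 34 were higher and 0 lower, the ligand gene jag2b having 443 and 325 CPM in slow muscle, against 26.2 and 21.2 CPM in neural crest and the receptor gene notch3 359 and 398 CPM in slow muscle, against 109.5 and 111 CPM in neural crest. jag2b differed by 4.02 ± 0.28 (SE) and notch3 by 1.78 ± 0.19 (SE) on the log2 scale (edgeR adjusted p = 0.00632 and 0.0102). her6, a Notch target, had 397 and 182 CPM in slow muscle, against 567 and 85.5 CPM in neural crest and was not called (adjusted p = 0.941), its neural crest libraries differing more than the sorts did. Higher counts without slow muscle replicates 1 and 2 were 7 and 6 for Bmp, 8 and 4 for Wnt, and 4 and 3 for Fgf; the lower call of the Bmp list was lost without neural crest replicate 1. The Wnt count was 7 without neural crest replicate 2, and the Fgf list held 1 lower gene without either neural crest library. wnt5b lost its call without either neural crest library or slow muscle replicate 2 (adjusted p = 0.0865 to 0.0901). etv4 lost its call without slow muscle replicate 2 (adjusted p = 0.0613). spry4 and notch3 lost their calls without either neural crest library (adjusted p = 0.0577 to 0.138).

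Hox genes, which mark position along the body axis, showed 4 higher and 1 lower of 47 tested (median log2 fold change 0.35), shares of 8.51% and 2.13% that are no larger than those of all tested genes. The other 42 were not called. Of the higher ones, hoxc13a had 44.6 and 138 CPM in slow muscle, against 7.07 and 3.51 CPM in neural crest. hoxd13a had 29.1 and 50.4 CPM in slow muscle, against 1.97 and 2.61 CPM in neural crest. hoxc12a had 73.6 and 95.6 CPM in slow muscle, against 18.6 and 17.3 CPM in neural crest. hoxb13a had 13.6 and 16.003 CPM in slow muscle, against 0 counts in both neural crest libraries. hoxc13a differed by 4.11 ± 0.74 (SE), hoxd13a by 4.12 ± 0.52 (SE) and hoxc12a by 2.24 ± 0.29 (SE) on the log2 scale (edgeR adjusted p = 0.0331, 0.0150 and 0.0151). The lower one was hoxb9a, with 93.8 and 70.15 CPM in slow muscle, against 174 and 188 CPM in neural crest. hoxb9a differed by -1.14 ± 0.24 (SE) on the log2 scale (edgeR adjusted p = 0.0442). The 4 higher genes had more CPM in slow muscle replicate 2 than in replicate 1. The list held 0 higher genes without slow muscle replicate 2 and 6 without neural crest replicate 1. hoxc13a and hoxc12a lost their calls without slow muscle replicate 2 or neural crest replicate 2 (adjusted p = 0.0508 to 0.0800). hoxd13a lost its call without slow muscle replicate 2 (adjusted p = 0.0627). hoxb13a lost its call without either slow muscle library (adjusted p = 0.0882 to 0.0963). hoxb9a lost its call without any 1 library (adjusted p = 0.0501 to 0.171).

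Muscle cells leave the cell cycle as they differentiate, while crest cells go on dividing as they migrate. Among cell cycle genes 11 of 43 tested genes were lower and 1 higher (median log2 fold change -0.58). These shares were 25.6% and 2.33%, against 4.54% and 9.65% of all tested genes. The 11 lower genes were those of D-type cyclins, their kinases, the replication helicase and its clamp. The mitotic cyclin, kinase and kinesin genes of the list were not called. Whether cells of either sort had left the cycle was not tested. The cyclin gene ccnd1 had 148 and 102 CPM in slow muscle, against 460.1 and 361 CPM in neural crest, and the replication helicase gene mcm6 had 82.2 and 73.7 CPM in slow muscle, against 224 and 224 CPM in neural crest. ccnd1 differed by -1.72 ± 0.28 (SE) and mcm6 by -1.52 ± 0.20 (SE) on the log2 scale (edgeR adjusted p = 0.0258 and 0.0153). The clamp gene pcna had 148 and 164 CPM in slow muscle, against 281 and 278 CPM in neural crest. pcna differed by -0.84 ± 0.18 (SE) on the log2 scale (edgeR adjusted p = 0.0483). Values of the sorts did not overlap at these genes, and the differences were small beside those of the muscle and pigment genes. mki67, a marker of cycling cells, had 179 and 232 CPM in slow muscle, against 386 and 347 CPM in neural crest and was not called (adjusted p = 0.0706). Lower counts were 3 without slow muscle replicate 1, 3 without slow muscle replicate 2, 2 without neural crest replicate 1 and 1 without neural crest replicate 2. The 1 higher call was lost without any 1 of the 4 libraries and under upper quartile scaling. Among cell cycle inhibitors 4 of 18 were higher and 0 lower, including btg2, with 1121 and 834 CPM in slow muscle, against 316 and 373 CPM in neural crest; that count was 2 without slow muscle replicate 1, neural crest replicate 1 or neural crest replicate 2. btg2 differed by 1.505 ± 0.23 (SE) on the log2 scale (edgeR adjusted p = 0.0228). Immediate early and heat shock genes were 11 higher and 3 lower of 42 tested, with egr1 at 371 and 607 CPM in slow muscle, against 102 and 129.7 CPM in neural crest and fosab at 1189.9 and 989 CPM in slow muscle, against 787 and 846 CPM in neural crest (adjusted p = 0.195). egr1 differed by 2.08 ± 0.32 (SE) on the log2 scale (edgeR adjusted p = 0.0229). Without neural crest replicates 1 and 2 the list held 7 and 5 higher genes, 7 without slow muscle replicate 2 and 6 without slow muscle replicate 1. Lower genes numbered 5 without slow muscle replicate 1 and 0 without either neural crest library. ccnd1 lost its call without either neural crest library or slow muscle replicate 2 (adjusted p = 0.050002 to 0.0850). mcm6, btg2 and egr1 lost their calls without either neural crest library (adjusted p = 0.0574 to 0.108). pcna lost its call without any 1 library (adjusted p = 0.0665 to 0.225).

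Markers of other trunk tissues were higher in the slow muscle sort alongside the muscle genes. In these bulk libraries, fewer cells of a type and less RNA per cell cannot be told apart. Epidermal genes were 25 higher and 1 lower of 47 tested (52 listed, 16 higher without slow muscle replicate 2, 2 lower without slow muscle replicate 1; median log2 fold change 3.62), and their summed level was 14437 and 19526 CPM in slow muscle, against 3123 and 2879.5 CPM in neural crest. The skin keratin gene krt4 had 4156 and 5957 CPM in slow muscle, against 314 and 198 CPM in neural crest, and tp63, the master regulator of the epidermis, had 187 and 210.0 CPM in slow muscle, against 4.90 and 1.59 CPM in neural crest. krt4 differed by 4.30 ± 0.36 (SE) and tp63 by 5.93 ± 0.64 (SE) on the log2 scale (edgeR adjusted p = 0.00680 and 0.0108). epcam had 522 and 537 CPM in slow muscle, against 39.2 and 16.999 CPM in neural crest, while cdh1 (E-cadherin) had 414 and 533 CPM in slow muscle, against 262 and 249.8 CPM in neural crest (adjusted p = 0.0565). epcam differed by 4.24 ± 0.48 (SE) on the log2 scale (edgeR adjusted p = 0.0122). All 4 defining epidermal markers were thus present in slow muscle. Through slow muscle alone, 4 of the 47 tested epidermal genes passed the filter. Ionocyte genes were 13 higher and 0 lower of 19, 6 tested through slow muscle alone, and summed to 3646 and 5339 CPM in slow muscle, against 971 and 953 CPM in neural crest; foxi3a, the ionocyte regulator, had 166 and 267 CPM in slow muscle, against 0 counts in both neural crest libraries. prdm1a itself is known outside muscle, in skin and fin among other tissues. The part of these cells in the differences above was not tested.

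Endothelial genes were 27 higher and 0 lower of 39 tested (41 listed; median log2 fold change 2.60), with sums of 6111 and 6704 CPM in slow muscle, against 1238 and 1179 CPM in neural crest. The defining marker cdh5 had 431 and 476 CPM in slow muscle, against 54.3 and 55.3 CPM in neural crest. kdrl had 195 and 245 CPM in slow muscle, against 32.6 and 45.4 CPM in neural crest. etv2 had 168 and 227 CPM in slow muscle, against 12.3 and 12.4 CPM in neural crest. cdh5 differed by 3.05 ± 0.19 (SE), kdrl by 2.50 ± 0.28 (SE) and etv2 by 3.999 ± 0.28 (SE) on the log2 scale (edgeR adjusted p = 0.00610, 0.0122 and 0.00624). Both slow muscle libraries held them at like levels, and neural crest held them too, at lower levels. Fin and connective tissue genes were higher as well: the sclerotome and fin mesenchyme list had 10 of 28 higher and summed to 4580.0 and 8847 CPM in slow muscle, against 480.3 and 380.1 CPM in neural crest, and the apical fin fold list had 11 of 23 higher and summed to 2560.4 and 5064 CPM in slow muscle, against 238 and 249 CPM in neural crest. The fin fold gene and1 (actinodin) had 369.5 and 1283 CPM in slow muscle, against 6.16 and 10.4 CPM in neural crest, and fras1, of the skin basement membrane, had 1532 and 2302 CPM in slow muscle, against 14.4 and 24.6 CPM in neural crest. and1 differed by 6.64 ± 0.81 (SE) and fras1 by 6.62 ± 0.44 (SE) on the log2 scale (edgeR adjusted p = 0.0142 and 0.00622). The sclerotome list held 6 higher genes without slow muscle replicate 2, and the apical fin fold list 7 without slow muscle replicate 1 and 5 without slow muscle replicate 2.

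Axial and kidney lists were higher at fewer genes. The filter was passed through slow muscle alone by 6 pronephros genes and by 5 presomitic and somite genes. For the pronephros 7 of 22 tested genes were higher (4 without slow muscle replicate 2), summing to 1319.9 and 1318 CPM in slow muscle, against 528 and 469.7 CPM in neural crest; the defining marker cdh17 had 57.2 and 123 CPM in slow muscle, against 0 counts in both neural crest libraries, while pax2a had 12.2 and 21.1 CPM in slow muscle, against 8.63 and 10.8 CPM in neural crest (adjusted p = 0.419). For the notochord and floor plate 7 of 22 were higher (4 without slow muscle replicate 2), summing to 2655 and 2377 CPM in slow muscle, against 306 and 316 CPM in neural crest; the sheath collagen gene col2a1b had 585 and 694 CPM in slow muscle, against 59.4 and 66.9 CPM in neural crest, whereas the defining marker noto had 0.957 and 3.03 CPM in slow muscle, against 0 and 3.57 CPM in neural crest. tbxta had 22.5 and 10.1 CPM in slow muscle, against 6.61 and 6.69 CPM in neural crest. col2a1b differed by 3.34 ± 0.21 (SE) on the log2 scale (edgeR adjusted p = 0.00610). noto and tbxta were not called. Presomitic and somite genes were 7 higher of 24, with 73.8 and 50.2 CPM in slow muscle, against 1.06 and 1.59 CPM in neural crest for the somite boundary gene ripply1, and 2 were higher without either slow muscle library and 4 without neural crest replicate 2. ripply1 differed by 5.55 ± 0.47 (SE) on the log2 scale (edgeR adjusted p = 0.00724). Neural tube progenitor genes were called at 1 of 27, notch3, whose call was lost without either neural crest library. The defining marker sox2 had 52.0 and 24.004 CPM in slow muscle, against 29.3 and 26.8 CPM in neural crest (edgeR adjusted p = 0.608). Rohon-Beard sensory neuron genes were called by edgeR at 0 of 14, with 3 higher and 2 lower at an unadjusted p under 0.05, and by DESeq2 at 3 higher and 1 lower.

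Blood lists held few calls. Erythroid genes were 1 higher and 1 lower of 19 tested, and summed to 500.4 and 271 CPM in slow muscle, against 291 and 370.4 CPM in neural crest. The lower call was lost without either neural crest library. The globin gene hbae3 had 54.5 and 19.8 CPM in slow muscle, against 45.8 and 46.5 CPM in neural crest (adjusted p = 0.775), and the defining erythroid factor gene gata1a had 2.87 and 1.495 CPM in slow muscle, against 2.37 and 2.49 CPM in neural crest (adjusted p = 0.965). The myeloid list had 1 of 14 higher, apoeb, a lipoprotein gene also known from other cells, with 1219 and 1844 CPM in slow muscle, against 48.9 and 62.7 CPM in neural crest. apoeb differed by 4.78 ± 0.32 (SE) on the log2 scale (edgeR adjusted p = 0.00622). The filter was passed through neural crest alone by 5 of the 14 myeloid genes. Of the 14 tested myeloid genes 12 had a fitted change below 0 (median log2 fold change -4.18). At 10 of the 14 both slow muscle libraries lay below both neural crest libraries, against 28.7% of all tested genes. By edgeR 0 of the 14 were called lower and by DESeq2 7. Without neural crest replicate 2 the list held 2 higher genes. Of the defining myeloid markers spi1b and lcp1, spi1b had 0 counts in both slow muscle libraries, against 1.46 and 15.02 CPM in neural crest (adjusted p = 0.0785). lcp1 had 3.27 and 1.74 CPM in slow muscle, against 13.3 and 97.8 CPM in neural crest (adjusted p = 0.0651). Neural crest replicate 2 held most of their counts. Fits without that library are given for other lists, and the part of myeloid cells in those differences was not tested.

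**Figure D4:**
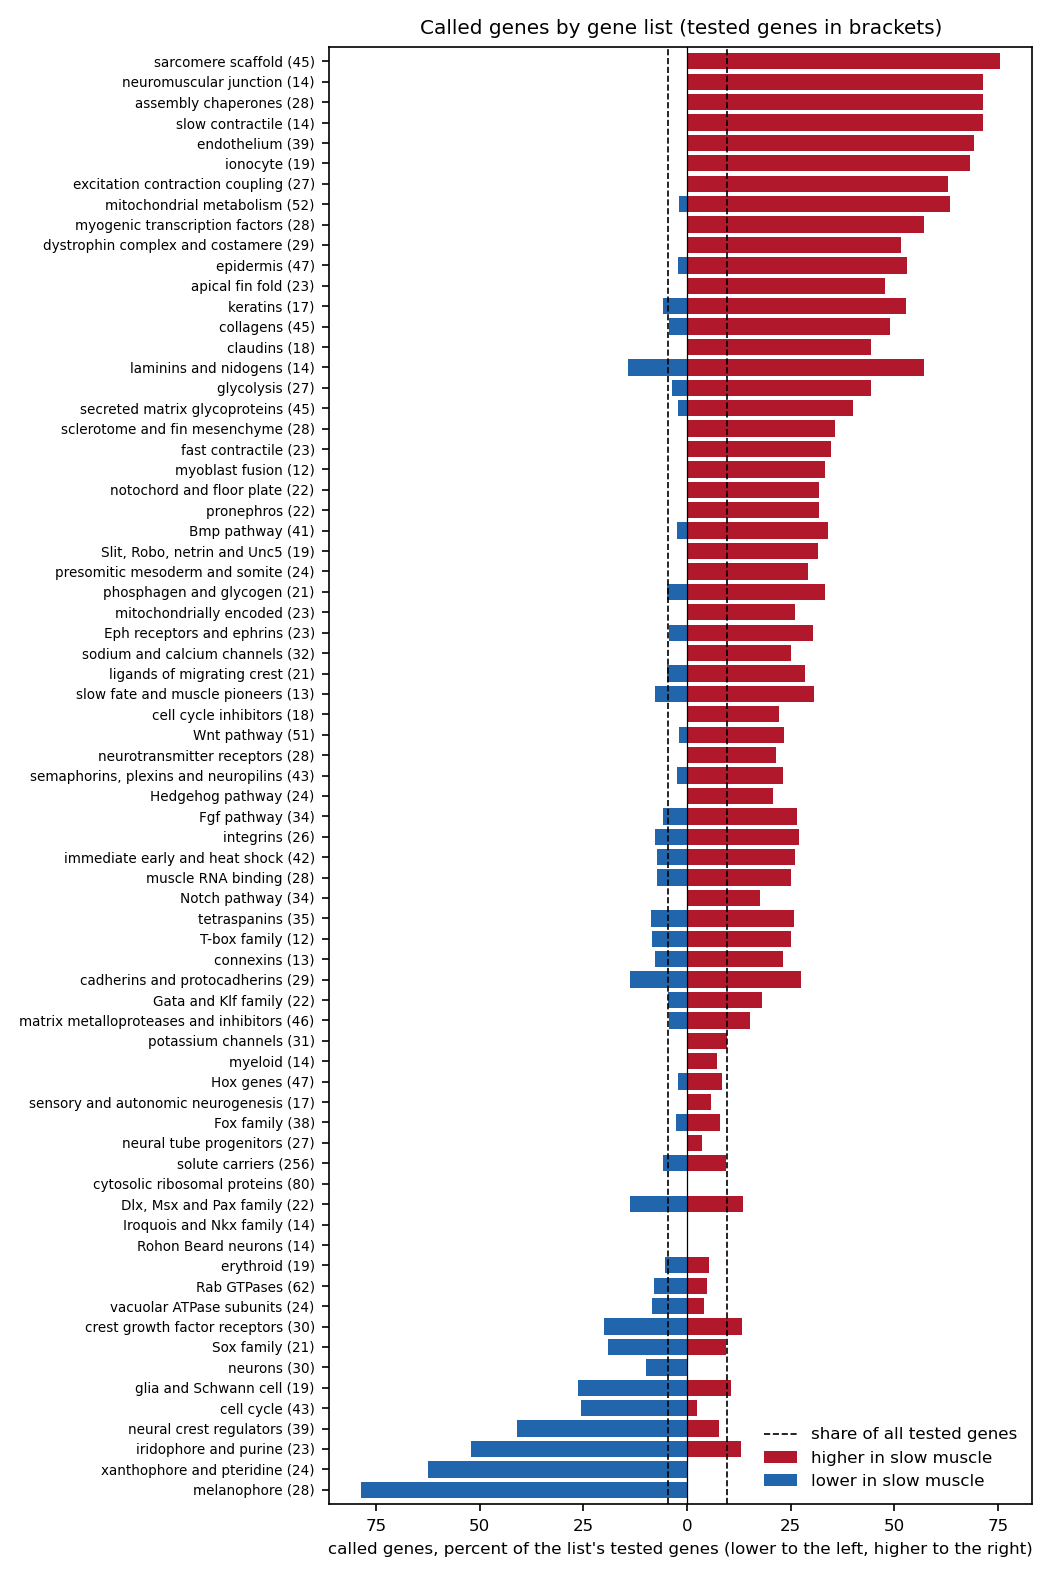
Called genes of each gene list with 10 or more tested genes, as a percentage of the tested genes (number in brackets), lower in slow muscle to the left and higher to the right of 0; dashed lines mark the shares of all tested genes, 4.54% lower and 9.65% higher. Muscle, endothelial, skin and matrix lists lie at the top and pigment and crest lists at the bottom. The ribosomal protein, Rohon-Beard neuron, and Iroquois and Nkx lists have no bar.

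The slow muscle libraries differed from each other along the same divisions. Slow contractile genes summed to 87432 and 38462 CPM in slow muscle replicates 1 and 2, against 555 and 546 CPM in neural crest replicates 1 and 2. Epidermal, ionocyte and fin sums were lower in slow muscle replicate 1 than in replicate 2, as given above, and endothelial sums were close. Among called higher genes, replicate 1 exceeded replicate 2 at 10 of 10 slow contractile, 34 of 34 sarcomere and 17 of 17 calcium coupling genes, but at 3 of 25 epidermal, 1 of 13 ionocyte and 1 of 10 sclerotome and fin genes. Of the higher signalling genes it did so at 2 of 12 Wnt, 4 of 9 Fgf, 6 of 14 Bmp, 2 of 5 Hedgehog and 4 of 6 Notch genes. Over all 1611 higher genes it did so at 887, and over all tested genes at 47.2%. Both slow muscle libraries stood above neural crest at each of the 1611 genes. Summed melanophore genes were 194 and 229 CPM in slow muscle, against 4444 and 3967 CPM in neural crest, and summed xanthophore genes 195 and 267 CPM in slow muscle, against 7687 and 7438 CPM in neural crest, with like values in replicates.

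**Figure D5:**
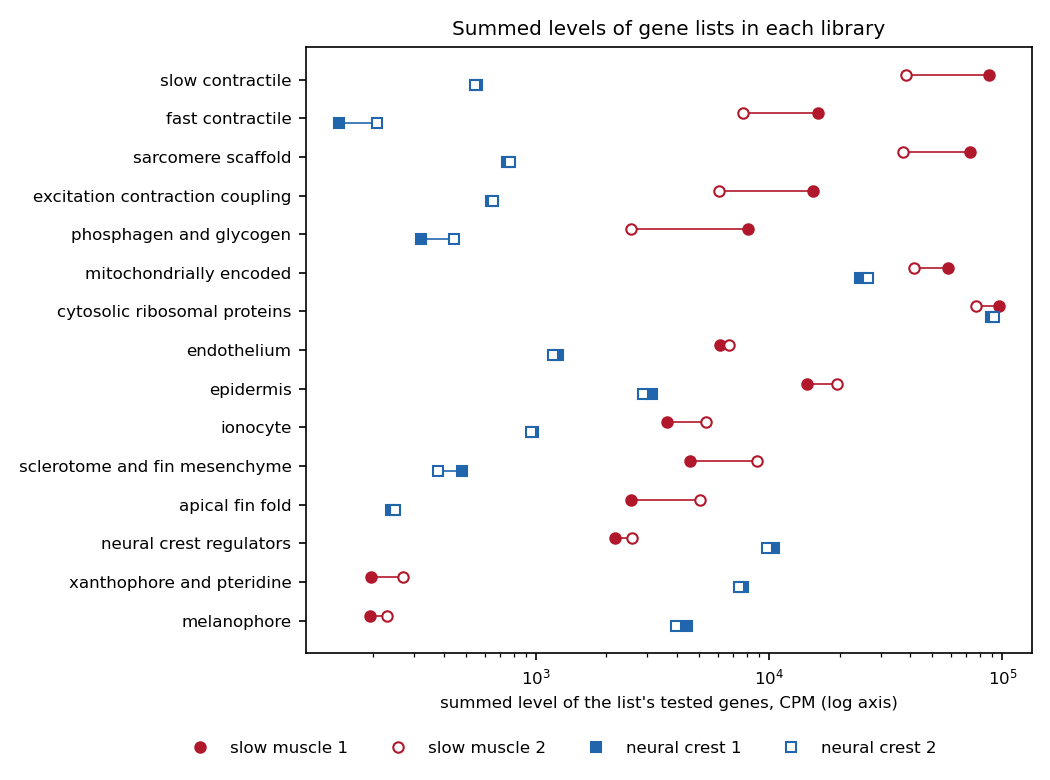
Summed level of the tested genes of 15 lists in each library (CPM on a log axis, circles for slow muscle and squares for neural crest, filled for replicate 1 and open for replicate 2). The filled circle lies to the right for muscle lists and to the left for skin and fin lists, and the ranges of circles and squares overlap for ribosomal protein genes.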

How the data were processed

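RNA of 4 libraries was compared, 2 of slow muscle and 2 of untreated neural crest, grouped by their labels. The deposited values are raw counts for each Ensembl gene (15355583 to 26441238 per library). Per the submitters' processing notes the tools included STAR, Subread, featureCounts and DESeq2 (no versions). Libraries were stranded per the series' design text. The genome build, the annotation and how strand and multiply mapped reads were counted are not stated in these sources, which leaves near-identical, overlapping and antisense genes uncertain. A deposited log2 table of the same counts was not used.

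Counts were tested in R 4.3.3 with edgeR 4.0.16 (glmQLFit and glmQLFTest, TMM scaling, 2 groups, no covariate, common dispersion 0.679, 2.76 prior degrees of freedom), after a filter of 10 counts in 2 libraries. Two-sided p-values were adjusted by Benjamini-Hochberg across 16701 genes at a threshold of 0.05. Fold changes are slow muscle over neural crest, and standard errors follow from the test statistic. Levels are CPM computed from the deposited counts. PCR reads without molecular identifiers are not independent molecules, so limits for a count of 0 cover counting error only. A list's median with bounds sets genes at 0 in both libraries of a sort to the bound that 3 counts over the pair give.

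The groups share the numbers 1 and 2, which the labels do not tie to embryos or days. The scripts were tested on simulated data with a smaller dispersion than these data had. That test checks the scripts and gives no error rate for these data. Alternatives were DESeq2 1.42.0, RLE and upper quartile scaling, no filter, 50 counts in 2 libraries, fits with 5 or 6 libraries, a replicate block, and leaving out each library.

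The members of the 73 gene lists were chosen with earlier results of these data known. The rule for named genes takes sox10, prdm1a, cdon, boc, smyhc1 and smyhc3; per direction the 12 most abundant called genes at 0 in the other sort and the 12 with the largest fold among those counted in every library at 20 CPM or more; and per list up to 8 called and 4 uncalled members by level, of which a selection is printed. The defining markers gata1a, myhz2, noto, spi1b and tp63 lie outside it. A single gene of the Hedgehog pathway is not reported here.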

Additional observations from a re-analysis of the deposited data

How the results depend on the processing

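The count of genes higher in slow muscle was 1611 and of genes lower 759. RLE scaling, upper quartile scaling, no filter, a filter of 50 counts, a fit of 5 libraries and the replicate block each gave counts within 1.5 times of these, namely 1402 to 2193 higher and 578 to 1123 lower. DESeq2 called 3124 higher and 1792 lower, and all 2370 edgeR calls were among them. Putting all 6 libraries in the fit called 293 higher and 158 lower, with 451 of the 2370 calls kept; without cyclopamine neural crest replicate 4 that fit called 1517 and 790, so the drop was not seen without that library. Leaving out 1 library gave 730 to 1584 higher and 274 to 566 lower. No called gene turned sign under any of these settings. With a replicate block 1499 genes were higher and 578 lower, and 1855 of the 2370 calls were kept; since the labels do not pair the libraries and their deviations correlated at only 0.01, the block result is given here alone.

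Of 181 called genes named in the text, 126 kept their call in all 4 fits that left out a library, 101 lost it with all 6 libraries in the fit and 0 once cyclopamine neural crest replicate 4 was left out. The replicate block ended 6 of these calls and upper quartile scaling 2; the cause was not tested. Of the 30 named genes that were not called, DESeq2 called 12, the fit without a filter 7, upper quartile scaling 3 and the replicate block 2. The filter of 50 counts kept 28 of the 30 and called 4. Genes that were not called also turned sign in places. Leaving out 1 library gave log2 fold changes from -0.024 to 0.74 for agrn, -0.69 to 0.22 for gata1a, -1.21 to 0.22 for hbae3, -0.97 to 1.76 for her6, -0.12 to 0.31 for hprt1, -0.014 to 0.082 for itgb1b, -0.92 to 8.42 for noto, -0.39 to 0.00037 for rps2 and -0.21 to 0.87 for sox2. Upper quartile scaling turned hprt1 (-0.15), itgb1b (-0.19) and noto (-0.095), and the replicate block turned her6 (0.29). With 2 libraries a group, genes that miss the threshold are not shown to be equal. Depth limits the genes near 0. In addition, 122 to 344 genes per library were at 0 where the replicate had at least 100 counts.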

Other observations

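Calls were also counted by gene family. Some claudin, keratin, proton pump, Rab, channel, solute carrier and T-box genes counted here also belong to lists above. The family counts are therefore not separate from the counts of those lists. Through slow muscle alone, 3 claudin, 4 keratin, 8 sodium and calcium channel and 2 T-box genes passed the filter. Of the channel genes, 2 passed through neural crest alone. For solute carriers the counts were 25 through slow muscle alone and 13 through neural crest alone. Claudins, the tight junction proteins of epithelia, were 8 higher of 18 tested in slow muscle, with cldnh at 151.2 and 279.6 CPM in slow muscle, against 0.0505 and 0.340 CPM in neural crest. The claudin count was 4 without slow muscle replicate 1 and 5 without slow muscle replicate 2. Keratins were 9 higher and 1 lower of 17; the lower one was krt18b, with 7.91 and 14.4 CPM in slow muscle, against 148 and 211 CPM in neural crest. krt18b differed by -4.01 ± 0.43 (SE) on the log2 scale (edgeR adjusted p = 0.0106). Without either slow muscle library 5 keratins were higher. Among genes of the vacuolar proton pump 1 was higher and 2 lower of 24, or 4.17% and 8.33%. Higher counts were 6 and 2 without slow muscle replicates 1 and 2 and 7 by DESeq2, and 1 was lower without slow muscle replicate 1 or neural crest replicate 2, so the family's counts were not stable. Of the copies of 1 subunit gene, atp6v1ab had 27.3 and 33.5 CPM in slow muscle, against 241 and 204 CPM in neural crest, while atp6v1aa had 349 and 763 CPM in slow muscle, against 163 and 156 CPM in neural crest (adjusted p = 0.0536). atp6v1ab differed by -2.87 ± 0.24 (SE) on the log2 scale (edgeR adjusted p = 0.00724). Rab genes were 3 higher and 5 lower of 62, or 4.84% and 8.06%, with 1 and 0 higher without slow muscle replicates 1 and 2. These shares rest on few calls. The share higher was below that of all tested genes (9.65%) and the share lower above it (4.54%). rab27b, of melanosome traffic, had 0 counts in both slow muscle libraries, against 80.2 and 67.7 CPM in neural crest. Voltage-gated sodium and calcium channel genes were 8 higher of 32, and 4 without either slow muscle library. cacna1ha (a T-type calcium channel) had 149.97 and 124 CPM in slow muscle, against 4.09 and 5.10 CPM in neural crest. cacna1ha differed by 4.90 ± 0.30 (SE) on the log2 scale (edgeR adjusted p = 0.00600). Solute carriers were 24 higher and 15 lower of 256 tested, shares close to those of all tested genes. Without slow muscle replicates 1 and 2 the higher count was 10 and 14, and without neural crest replicate 2 the lower count was 8. The peptide transporter gene slc15a2 had 6.30 and 7.88 CPM in slow muscle, against 401 and 329.6 CPM in neural crest. slc15a2 differed by -5.69 ± 0.28 (SE) on the log2 scale (edgeR adjusted p = 0.00581). Of the T-box family 3 of 12 were higher and 1 lower. The higher count was 1 and 0 without slow muscle replicates 1 and 2, and the lower call was lost without either. tbx18 had 90.2 and 66.8 CPM in slow muscle, against 0.757 and 0 CPM in neural crest. tbx18 differed by 7.63 ± 1.24 (SE) on the log2 scale (edgeR adjusted p = 0.0260). tbx18 lost its call without either slow muscle library (adjusted p = 0.0709 to 0.0959).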
